A study of Mus musculus with 24 samples.

Results

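The genes described here are 10 markers of liver endothelium, Stab1, Stab2, Fcgr2b, Lyve1, Clec4g, Gpr182, Oit3, Kdr, Pecam1 and Cdh5, taken by gene symbol from a mouse liver expression table of 14293 genes. All 10 were found and each held a single row. The first 7 are used as markers of the sinusoidal endothelium of the liver, and Kdr, Pecam1 and Cdh5 are shared by endothelium of other vessels. RNA was sequenced from 24 liver samples in 3 groups of 8, labelled Vehicle, Vutiglabridin and Semaglutide, and the design text describes the tissue as liver with nonalcoholic steatohepatitis (NASH). Vutiglabridin is a derivative of glabridin, a licorice compound, and is named in the series title as acting on paraoxonase-2. Semaglutide activates the receptor of the incretin hormone GLP-1. Besides tissue and treatment, the labels state no strain, sex, age, disease model, diet, dose or duration, and no healthy liver group was analysed here. Separate animals are not named either, and a p-value here therefore refers to variation among samples that could be technical.

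Liver sinusoidal endothelial cells line the hepatic capillaries. They are perforated by fenestrae, lack a continuous basement membrane, and take up waste macromolecules from blood through scavenger, lectin and immunoglobulin receptors. In chronic liver injury they are known to lose fenestrae and gain basement membrane and features of ordinary capillaries, a process called capillarization. Their growth and identity depend in part on vascular endothelial growth factor (VEGF) from neighbouring hepatocytes and stellate cells.

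Levels are FPKM (fragments per kilobase of transcript, divided by the mapped fragments of the library), which are scaled by gene length, so levels of different genes can be compared. Differences are log2 differences of FPKM + 1, given with the standard error (SE) of a limma model fitted to 11562 genes in all 24 samples. A gene was called higher or lower where its p-value, adjusted over all 11562 genes within a comparison, was under 0.05. All 10 genes passed the filter on low values. These are whole-tissue samples, so fewer endothelial cells and less RNA per cell cannot be told apart.

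Promoter sequences (250 bases before to 50 after the transcription start, RefSeq, GRCm38.p6) were found for 5 of the 10 genes. Those of Clec4g and Kdr are shown because these genes changed with treatment, and those of Stab1 and Stab2 because the pair had the highest Pearson correlation among samples. All 4 lie on the minus strand, at chr8:3720602-3720901 for Clec4g, chr5:75978406-75978705 for Kdr, chr14:31168592-31168891 for Stab1 and chr10:87007893-87008192 for Stab2. They are printed 5′ to 3′ along the gene, with matches to the motifs searched in capitals.
Clec4g: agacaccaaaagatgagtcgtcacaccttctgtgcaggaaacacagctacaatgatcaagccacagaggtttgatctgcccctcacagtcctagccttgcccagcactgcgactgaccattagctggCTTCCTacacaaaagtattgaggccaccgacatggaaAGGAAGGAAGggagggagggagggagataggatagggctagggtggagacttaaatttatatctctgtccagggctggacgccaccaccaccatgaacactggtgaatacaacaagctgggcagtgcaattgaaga
Kdr: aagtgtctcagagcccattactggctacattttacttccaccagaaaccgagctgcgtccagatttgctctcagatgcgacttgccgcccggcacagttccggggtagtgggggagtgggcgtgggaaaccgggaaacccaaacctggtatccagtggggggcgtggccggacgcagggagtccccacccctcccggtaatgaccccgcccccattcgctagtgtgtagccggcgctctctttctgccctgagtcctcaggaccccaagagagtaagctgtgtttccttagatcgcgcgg
Stab1: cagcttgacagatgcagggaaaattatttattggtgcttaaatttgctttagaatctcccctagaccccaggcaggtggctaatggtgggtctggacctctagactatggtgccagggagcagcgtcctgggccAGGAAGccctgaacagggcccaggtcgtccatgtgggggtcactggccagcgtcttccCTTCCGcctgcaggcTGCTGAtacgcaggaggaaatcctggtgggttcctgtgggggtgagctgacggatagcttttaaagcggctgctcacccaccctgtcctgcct
Stab2: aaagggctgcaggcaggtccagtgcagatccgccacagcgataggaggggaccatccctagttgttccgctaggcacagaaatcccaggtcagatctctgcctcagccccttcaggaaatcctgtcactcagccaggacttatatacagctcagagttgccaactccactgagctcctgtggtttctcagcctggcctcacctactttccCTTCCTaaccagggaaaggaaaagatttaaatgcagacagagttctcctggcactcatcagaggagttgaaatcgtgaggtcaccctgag

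The motifs searched on both strands were AGGAAG and CGGAAG, cores of sites for ETS factors, which act in all endothelium, AGATAA for GATA factors and TGCTGA, a MAF half-site. GATA4 and MAF are known for their part in sinusoidal identity. Clec4g held AGGAAG 3 times, and 2 of these matches overlap (bases 165 to 170 and 169 to 174 of the printed sequence). Stab1 held AGGAAG at bases 135 to 140, CGGAAG on the other strand at 193 to 198 and TGCTGA at 208 to 213, and the Stab2 promoter held AGGAAG on the other strand at 211 to 216. Kdr and Fcgr2b held none of the 4 in this window. Among 32851 mouse promoters of the same length, 35.4% held AGGAAG, 16.9% CGGAAG, 11.2% AGATAA and 19.5% TGCTGA, and a match is only a description of the letters.

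In vehicle livers Clec4g, which encodes the sinusoidal lectin LSECtin, had the highest level of the 10 genes, at 13.5 ± 0.382 FPKM (SD, n = 8). It was followed by Fcgr2b (8.35 ± 0.766), Stab2 (7.62 ± 0.900), Stab1 (7.50 ± 0.652), Oit3 (7.05 ± 0.759), Cdh5 (6.26 ± 1.23), Lyve1 (5.12 ± 0.953), Gpr182 (4.88 ± 0.461), Pecam1 (4.05 ± 0.600) and Kdr (3.62 ± 0.518). Of the 9 neighbouring pairs in this order, only Clec4g and Fcgr2b had ranges that did not overlap. The mean levels lay between percentile 53.0 (Kdr) and percentile 81.0 (Clec4g) of the table. Clec4g also varied least among vehicle samples, with a coefficient of variation of 2.83%, against 8.69% for Stab1 and 19.7% for Cdh5. The 2.83% is below the error expected from counting fragments alone, estimated at 4.5% for Clec4g at its median. The narrow vehicle range therefore does not show a steady gene.

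**Figure D1:**
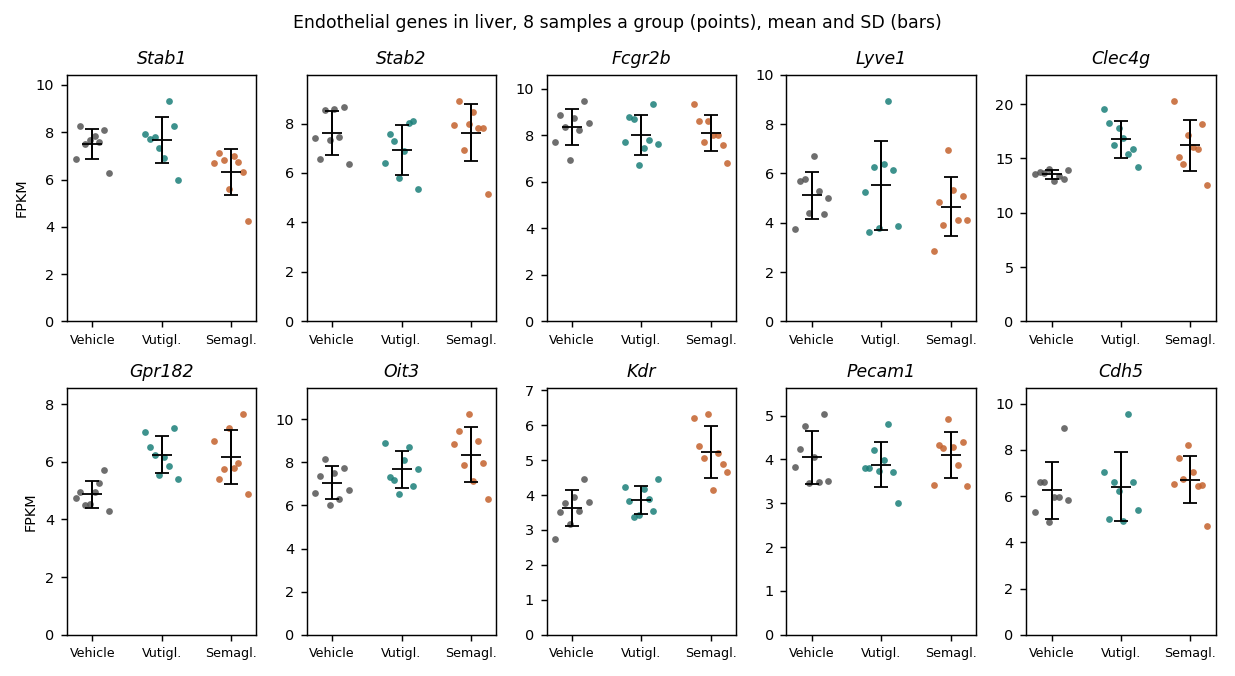
FPKM of the 10 endothelial genes (vertical axes, each from 0) in the 8 samples of each group (points), with the group mean and SD (bars). The 8 vutiglabridin points of Clec4g lie above all vehicle points, and 7 of 8 semaglutide points of Kdr lie above all vehicle points.

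Hepatocyte genes matched the tissue label, with Alb (albumin) at 22100 ± 1590 FPKM in vehicle (SD, n = 8). Libraries implied 12.0 to 19.8 M fragments (M, mega) in vehicle, 6.0 to 15.2 M in vutiglabridin and 9.3 to 12.4 M in semaglutide, estimated from the steps of low FPKM values. By that estimate Lyve1 rested on the fewest fragments, 80 in the lowest library and a median of 185, and Stab1 on a median of 890. Markers of other cell types moved with treatment. Of all 11562 genes, 6.53% were called higher and 8.78% lower with vutiglabridin, and 14.3% and 12.7% with semaglutide. Of 10 leukocyte markers, 8 were lower in vutiglabridin and 7 in semaglutide, and their summed level was 109 to 212 FPKM in vehicle, 67.9 to 123 in vutiglabridin and 73.1 to 117 in semaglutide. Of 12 Kupffer cell markers, 5 were lower with either drug. With semaglutide 1 was higher (Slc40a1, a call lost on the TPM scale and with GC and length trends removed). With vutiglabridin the 5 were C1qa, C1qb, C1qc, Csf1r and Adgre1. Of the 7 that did not pass there, 5 had positive differences, among them Clec4f (0.18) and Vsig4 (0.11). The Kupffer cell sums were 288 to 766 FPKM in vehicle, 190 to 435 in vutiglabridin and 194 to 340 in semaglutide. Without vehicle replicate 7, whose sum was the 766, the lower counts were 2 and 3, and without semaglutide replicate 8 the semaglutide count was 3. Of 11 hepatocyte markers, 6 were higher with either drug, with sums of 34600 to 42900, 37800 to 53100 and 39000 to 51000 FPKM. Of 12 stellate cell markers, 5 were lower with vutiglabridin, and 6 were lower and 1 (Hgf) higher with semaglutide, with sums of 206 to 320, 145 to 232 and 148 to 197 FPKM. None of these sums was at 0, and the part of these cells in the endothelial values was not tested.

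The comparison of vutiglabridin with vehicle asks which endothelial genes differed with the drug. Clec4g and Gpr182 were higher, by 24% and 28.1% of the vehicle mean, and 0 of the 10 genes were lower in the limma test (also 0 at an unadjusted p under 0.05). These 2 of 10 calls stand against 15.3% of all 11562 genes called in either direction, with 6.53% higher and 8.78% lower, so the number of calls does not set the endothelial genes apart. The median log2 difference of the 10 genes was 0.04, beside 0.01 for all genes tested.

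Clec4g (chr8:3707064-3720651, minus strand) ranged from 12.89 to 13.98 FPKM in vehicle (median 13.6) and from 14.24 to 19.53 in vutiglabridin (median 16.6). All 8 vutiglabridin samples were above all 8 vehicle samples, a separation that 0.770% of the genes tested showed in this direction. It rests in part on the narrow vehicle range, whose spread is below the estimated counting error. The log2 difference was 0.29 ± 0.07 (SE; limma adjusted p = 0.00720).

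Gpr182, an endothelial receptor that binds chemokines (chr10:127747276-127751732, minus strand), ranged from 4.31 to 5.73 FPKM in vehicle (median 4.85) and from 5.40 to 7.19 in vutiglabridin (median 6.20). The groups overlapped only by vutiglabridin replicates 4 and 8, and the other 6 vutiglabridin samples were above all vehicle samples. The log2 difference was 0.30 ± 0.07 (SE; limma adjusted p = 0.00635). Part of the exons of Gpr182 (74 bases), Clec4g (146), Stab1 (112), Stab2 (141) and Fcgr2b (155) lies opposite exons of another gene. Whether the counting used strand is not stated. The calls of Clec4g and Gpr182 both depended on the scale. Total FPKM was higher in vutiglabridin libraries (368614 ± 14580, SD, n = 8) than in vehicle (330352 ± 14299), and rescaling to equal totals (TPM, a unit whose sum is the same in every library) moved the median gene from 0.01 to −0.11. On that scale Clec4g differed by 0.14 (adjusted p = 0.130) and Gpr182 by 0.17 (0.115), which is 0.25 and 0.28 above the median gene.

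The scavenger receptors did not pass the test with vutiglabridin. Stab1, stabilin-1 (chr14:31139013-31168641, minus strand), which also occurs on macrophages, was 7.50 ± 0.652 FPKM in vehicle and 7.66 ± 0.977 in vutiglabridin (SD, n = 8), a log2 difference of 0.02 (95% interval −0.15 to 0.19). Stab2, stabilin-2, a receptor that clears hyaluronan (chr10:86841198-87008025, minus strand), was 7.62 ± 0.900 and 6.93 ± 1.01 FPKM, a difference of −0.12 (−0.31 to 0.06), and 6 of 8 vutiglabridin samples were below the vehicle mean. Fcgr2b, the inhibitory receptor for immunoglobulin G (chr1:170958617-170976547, minus strand), was 8.35 ± 0.766 and 8.02 ± 0.858 FPKM, a difference of −0.05 (−0.19 to 0.08). Its coding sequence resembles that of Fcgr3, a receptor of myeloid cells that was lower with vutiglabridin (−0.46, limma adjusted p = 0.00533), and how reads common to both were assigned is not stated. After TPM rescaling Stab2 and Fcgr2b were called lower, at −0.26 (limma adjusted p = 0.0462) and −0.19 (0.0489), so that the 2 genes called on that scale were other ones, in the opposite direction. Relative to the median gene on that scale they were at −0.15 and −0.09, and 23.6% of all genes were called lower there.

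Lyve1, a hyaluronan receptor of sinusoidal and lymphatic endothelium (chr7:110850607-110863239, minus strand), had the widest spread, from 3.62 to 8.94 FPKM in vutiglabridin (median 5.68) against 3.75 to 6.72 in vehicle (median 5.15), and its difference of 0.06 had an interval of −0.24 to 0.36. Oit3, which encodes a zona pellucida domain protein of the liver (chr10:59422958-59441778, minus strand), was 7.67 ± 0.846 FPKM against 7.05 ± 0.759, a difference of 0.11 (−0.06 to 0.27). The general endothelial genes lay close to vehicle. Kdr, the VEGF receptor VEGFR2 (chr5:75932827-75978458, minus strand), differed by 0.08 (−0.08 to 0.24), Pecam1, an adhesion molecule of endothelium and leukocytes (chr11:106654217-106750628, minus strand), by −0.05 (−0.21 to 0.11), and Cdh5, VE-cadherin of endothelial junctions (chr8:104101625-104144511, plus strand), by 0.02 (−0.21 to 0.25).

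**Figure D2:**
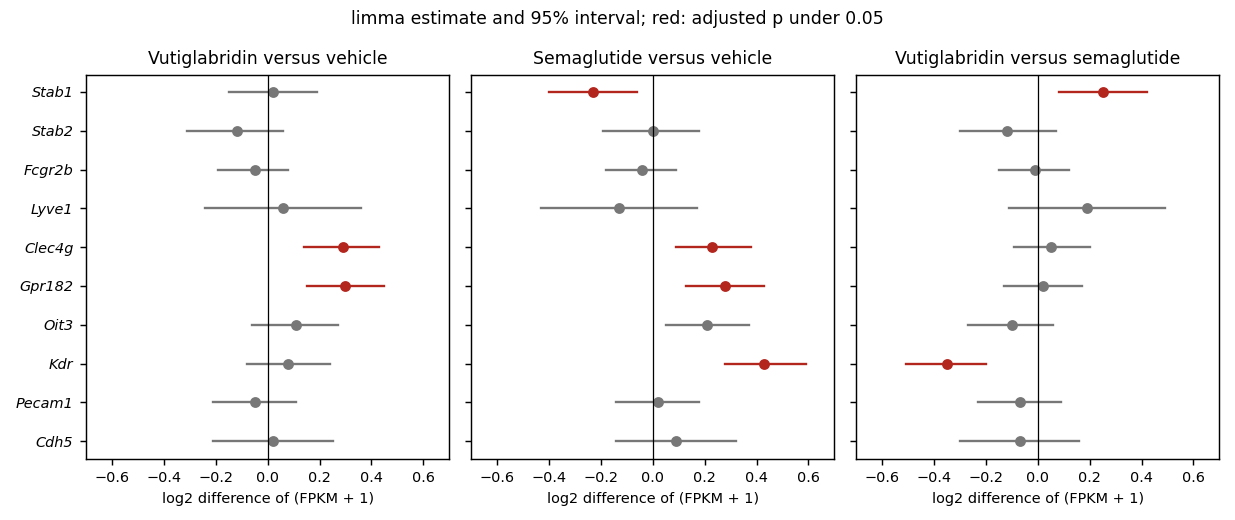
Log2 difference of FPKM + 1 for each gene in the 3 comparisons (points), with the 95% interval of the limma estimate (lines) and calls at adjusted p under 0.05 in red. Clec4g and Gpr182 are red against vehicle for both drugs, and Kdr and Stab1 are red in both comparisons that hold semaglutide.

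Semaglutide livers differed from vehicle in 4 of the 10 genes. Kdr, Gpr182 and Clec4g were higher, by 44.7%, 26.3% and 19.8% of the vehicle mean, and Stab1 was lower (−15.8%). The share stands against 27.0% of all genes called, 14.3% higher and 12.7% lower, and the median log2 difference of the 10 genes was 0.06, beside −0.01 for all genes. Both drugs were compared with the same 8 vehicle samples, so the drug comparisons are not independent.

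Kdr ranged from 2.73 to 4.45 FPKM in vehicle (median 3.66) and from 4.15 to 6.31 in semaglutide (median 5.12). Only semaglutide replicate 5, at 4.15 FPKM, lay within the vehicle range, below vehicle replicate 7 at 4.45. The log2 difference was 0.43 ± 0.08 (SE; limma adjusted p = 0.000157). Kdr was called under all 28 alternatives tried, with differences of 0.39 to 0.52 and adjusted p of at most 0.00397.

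Gpr182 ranged from 4.87 to 7.65 FPKM in semaglutide (median 5.86), against 4.31 to 5.73 in vehicle. Semaglutide replicates 2 and 8 lay within the vehicle range and the other 6 above it. The log2 difference was 0.28 ± 0.07 (SE; limma adjusted p = 0.00607). Clec4g ranged from 12.57 to 20.28 FPKM in semaglutide (median 16.0). Its replicate 8 was below every vehicle sample and the other 7 were above every vehicle sample. The difference was 0.23 ± 0.07 (adjusted p = 0.0160), and both genes kept their call under all 28 alternatives, TPM included (0.23, adjusted p = 0.0272, for Gpr182 and 0.18, 0.0434, for Clec4g).

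Stab1 ranged from 6.27 to 8.25 FPKM in vehicle (median 7.63) and from 4.23 to 7.11 in semaglutide (median 6.72). All 8 semaglutide samples were below the vehicle mean, but the ranges overlapped, and replicates 4 and 8 alone, at 5.61 and 4.23, were below every vehicle sample. The log2 difference was −0.23 ± 0.08 (SE; limma adjusted p = 0.0429). This call was lost without semaglutide replicate 8 (−0.16, adjusted p = 0.0997), 4 (0.0808) or 7 (0.0544), without vehicle replicate 2 (0.0814), 3 (0.0628), 4 (0.0646), 5 (0.0662), 6 (0.0595) or 7 (0.0764), and with no filter on low values (0.0504). It held at −0.28 (0.0191) on the TPM scale. Of the 12 Kupffer cell markers listed above, 5 were lower and 1 higher with semaglutide. Replicate 8 had the lowest Kupffer cell sum of its group, 194 FPKM, and was below its group mean in all 10 endothelial genes. With vutiglabridin 5 of the 12 markers were also lower, while Stab1 differed by 0.02. Whether macrophages had a part in the Stab1 difference was not tested.

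Oit3 ranged from 6.00 to 8.17 FPKM in vehicle (median 7.05) and from 6.32 to 10.23 in semaglutide (median 8.43), with 4 of 8 semaglutide samples above every vehicle sample. Its difference of 0.21 ± 0.08 missed the threshold (limma adjusted p = 0.0514) and passed it without semaglutide replicate 8 (0.26, adjusted p = 0.0139) or 5 (0.24, 0.0303), without vehicle replicate 3 (0.24, 0.0360) or 7 (0.23, 0.0476), and in 5 other alternatives. Stab2 was 7.62 ± 1.15 FPKM in semaglutide, and its difference from vehicle had an interval of −0.19 to 0.18. The intervals were −0.18 to 0.09 for Fcgr2b, −0.43 to 0.17 for Lyve1, −0.14 to 0.18 for Pecam1 and −0.14 to 0.32 for Cdh5.

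The semaglutide columns of the table were written differently from the others (all 114344 cells carry a trailing space, against 0 elsewhere), so a difference in how these libraries were processed cannot be told apart from the drug. Across genes, semaglutide differences from vehicle also followed GC content (Spearman correlation −0.30) and exon length (0.27), against −0.07 and −0.02 for vutiglabridin (genes are not independent replicates). With these trends removed in each library, the semaglutide differences were 0.39 for Kdr (limma adjusted p = 0.000313), 0.36 for Gpr182 (0.000962), 0.33 for Clec4g (0.000806), −0.26 for Stab1 (0.0136) and 0.30 for Oit3 (0.00820).

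Set against each other, the drugs differed in Kdr and Stab1, 2 of 10 genes, where 24.4% of all genes were called (11.9% higher and 12.6% lower in vutiglabridin). Kdr was lower in vutiglabridin (3.37 to 4.46 FPKM, median 3.86) than in semaglutide, with 5 of 8 vutiglabridin samples below every semaglutide sample, a log2 difference of −0.35 ± 0.08 (SE; limma adjusted p = 0.00139) that was called under all 28 alternatives. Stab1 was higher in vutiglabridin (5.99 to 9.32 FPKM, median 7.76), with 6 of 8 samples above every semaglutide sample, by 0.25 ± 0.08 (adjusted p = 0.0290). That call was lost on the TPM scale (0.16, adjusted p = 0.189), with only these 2 groups in the fit (0.0593), with the rank sum test (0.0535), without semaglutide replicate 4 (0.0560) or 8 (0.18, 0.0646), and without vutiglabridin replicate 6 (0.0644) or 7 (0.0502). For Clec4g the difference between the drugs was 0.05 (95% interval −0.09 to 0.20) and for Gpr182 0.02 (−0.13 to 0.17). Lyve1 had the widest interval, −0.11 to 0.49. The 10 genes had a median of −0.04, beside 0.01 for all genes.

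Expressed relative to Pecam1 of the same sample, as a description, Kdr was 0.901 ± 0.123 in vehicle (SD, n = 8), 1.02 ± 0.218 in vutiglabridin and 1.29 ± 0.251 in semaglutide. The ratio of Gpr182 was 1.22 ± 0.161, 1.63 ± 0.239 and 1.51 ± 0.238, and that of Clec4g 3.41 ± 0.527, 4.38 ± 0.622 and 4.00 ± 0.832. Stab1 gave 1.88 ± 0.239, 1.98 ± 0.149 and 1.55 ± 0.267. Ratios within a library do not depend on its scale, and they show unequal levels, not which of the 2 genes differed.

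Within groups the endothelial genes tended to vary together, least so in vutiglabridin. Of the 45 gene pairs, 43 had a positive correlation of their samples' deviations from the group means (n = 24), with a median Pearson r of 0.37, and 13 passed a permutation test adjusted over the 45 pairs, 8 of them also by Spearman's rho. By group 35 pairs were positive in vehicle (median r 0.42), 33 in vutiglabridin (0.21) and 41 in semaglutide (0.48). Semaglutide replicate 8, below its group mean in all 10 genes, enters every pooled pair. Both values of a pair come from the same library and share its depth and scale. Pairs of other genes were not compared. The stabilins had the highest Pearson r (0.75, adjusted permutation p = 0.00810, and rho = 0.58, 0.0296), but 5 pairs had a higher rho, and r fell to 0.49 without the 2 samples farthest from the median of Stab1. Pecam1 and Cdh5, both proteins of endothelial junctions, gave r = 0.74 (adjusted permutation p = 0.00135) and rho = 0.75 (0.00292), and r = 0.69 without 2 samples. Oit3 and Kdr gave r = 0.73 (adjusted permutation p = 0.00382), rho = 0.78 (0.00225) and 0.70 without 2 samples.

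Clec4g and Gpr182, the pair that was higher with both drugs, had r = 0.60 over 24 samples (adjusted permutation p = 0.0418, and 0.152 for rho = 0.45). By group their r was −0.71 in vehicle, 0.49 in vutiglabridin and 0.84 in semaglutide. Over all samples Clec4g had r = 0.07 to Pecam1, 0.10 to Cdh5 and 0.19 to Kdr. By group these differed in sign, with −0.44, −0.48 and −0.47 in vehicle, 0.16, −0.13 and −0.12 in vutiglabridin, and 0.14, 0.48 and 0.51 in semaglutide. All vehicle correlations of Clec4g rest on a spread below its estimated counting error. Stab1 and Kdr, which differed in opposite directions with semaglutide, had r = −0.01.

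**Figure D3:**
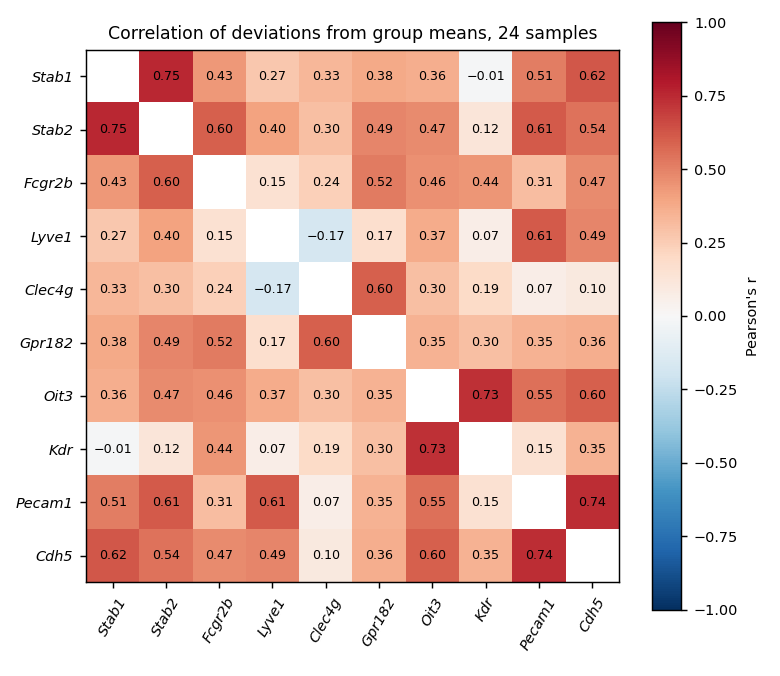
Pearson correlation between each pair of the 10 genes, over the 24 samples' deviations from their group means on the log2(FPKM + 1) scale (colour and printed value). The highest values are those of Stab1 with Stab2 (0.75), Pecam1 with Cdh5 (0.74) and Oit3 with Kdr (0.73).

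A few libraries held the lowest or highest values of several of the 10 genes. Semaglutide replicate 8 was below its group mean in all 10 genes and lowest of its group in 8, with a summed level of 56.8 FPKM against a group median of 74.8. Other endothelial lists did not all follow. Its pan-endothelial sum was the lowest of the group (103 FPKM, range 103 to 122). Its sum of other sinusoidal genes was the second lowest (383, with replicate 3 at 376). That sum is led by Ctsl, Aass and Cd36, at group means of 127, 97.3 and 79.3 FPKM. The capillary sum of replicate 8 (124) was the third lowest and its lymphatic sum (35.1) the second highest. Vutiglabridin replicate 8 was lowest in 5 genes, and had the lowest leukocyte (67.9 FPKM) and Kupffer cell (190 FPKM) sums of its group. Its pan-endothelial sum (96.8 FPKM) was the second lowest. Vehicle replicate 7 was highest in 6 genes, and vutiglabridin replicate 6 in 4. Both had the highest pan-endothelial (119 and 123 FPKM) and Kupffer cell (766 and 435 FPKM) sums of their groups. Semaglutide replicate 4 was highest in 5 genes and had the highest pan-endothelial sum of its group (122 FPKM). Its Kupffer cell sum, 207 FPKM, was the second lowest of the group.

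**Figure D4:**
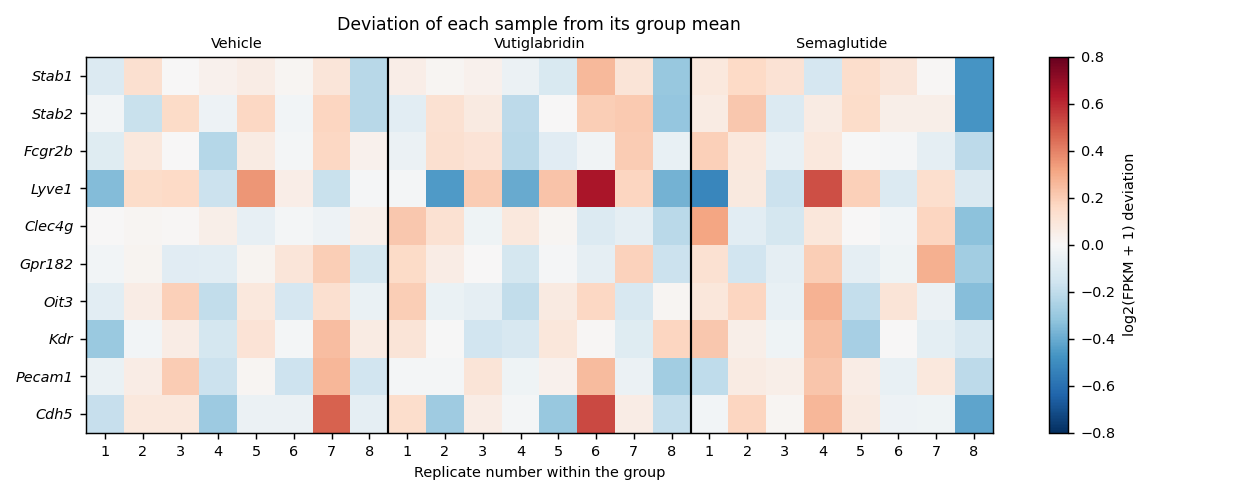
Deviation of each sample from its group mean on the log2(FPKM + 1) scale (colour), for the 10 genes (rows) and the 8 replicates of each group (columns). Semaglutide replicate 8 is below the mean in all 10 rows and lowest of its group in 8.

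The 8 other genes that followed the mean of the 10 genes most closely, by Pearson r over the 24 samples' deviations and among 10170 genes with a mean of at least 1 FPKM, were Adgrf5 (0.73), Ednra (0.71), Mmrn2 (0.71), Fgd5 (0.69), Entpd1 (0.68), Epsti1 (0.67), Lcp1 (0.67) and Fabp7 (0.67). Mmrn2 is an extracellular protein of endothelium and Fgd5 an exchange factor of endothelial cells, while Lcp1 is an actin-bundling protein of leukocytes. These are the highest of many correlations and carry no test.

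Other genes of sinusoidal endothelium were read from a list of 26 tested genes. Of all genes, 6.53% were higher and 8.78% lower with vutiglabridin. Here 2 were higher, 0 lower (also 0 at an unadjusted p under 0.05) and 24 did not pass (median 0.05, all genes 0.01). The 2 were Aass, a lysine-degrading enzyme, at 116 ± 20.8 FPKM against 84.0 ± 10.8 (0.44, limma adjusted p = 0.00632), and Ctsl, a lysosomal protease, at 133 ± 10.2 against 111 ± 6.78 (0.26, 0.0175). Their calls were lost after quantile normalization, which left 0 higher and 1 lower. TPM left 1 higher and 3 lower, where 23.6% of all genes were lower. In vehicle Aass and Ctsl lay above all of the 10 genes, whose highest mean was 13.5 FPKM. Hepatocyte markers were higher in the same vutiglabridin samples, and which cells made Aass and Ctsl was not tested.

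With semaglutide 7 of the 26 were higher, 2 lower and 17 did not pass (median 0.17, all genes −0.01), where 14.3% of all genes were higher and 12.7% lower, and on the TPM scale 3 were higher and 2 lower. Dnase1l3, a secreted nuclease, was 8.00 ± 0.765 FPKM against 5.92 ± 0.596 in vehicle (0.38, limma adjusted p = 0.000225). Plxnc1, a semaphorin receptor, differed by 0.28 (0.00333) and F8, coagulation factor VIII, which the liver endothelium makes, by 0.32 (0.00362). Ushbp1 was lower by its mean, 1.98 ± 0.248 against 2.78 ± 0.317 FPKM (−0.35, 0.000236), as was Thbd, the anticoagulant receptor thrombomodulin, at 1.32 ± 0.286 against 2.80 ± 2.03 (−0.59, 0.0323). The other 4 higher genes were Adgrl4, Sema6a, Flt4 and Mrc1, the mannose receptor. Between the drugs 1 was higher in vutiglabridin (Ushbp1, 0.42, 2.95e-05), 4 lower (Sema6a, F8, Dnase1l3 and Maf) and 21 did not pass. Of all genes, 11.9% were higher and 12.6% lower. On the TPM scale 9 of the 26 were lower, beside 19.6% of all genes. Without semaglutide replicate 8, 7 were lower between the drugs, and against vehicle 1 was lower in place of 2, Thbd having lost its call (0.0599).

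Of 30 tested pan-endothelial genes, 0 were higher with vutiglabridin in the limma test (1 at an unadjusted p under 0.05) and 1 was lower, Lyl1, a transcription factor of endothelium and blood cells (−0.43, limma adjusted p = 0.0167), with a median of −0.03. After quantile normalization Lyl1 lost its call (−0.30, 0.0635), and 2 of the 30 were higher and 0 lower. As deposited, 6.53% of all genes were higher and 8.78% lower. With semaglutide 4 were higher and 1 lower (median −0.01), shares below those of all genes (14.3% higher and 12.7% lower), and on the TPM scale 2 were higher. Ptprb, a phosphatase that acts on endothelial receptors, was 4.97 ± 0.746 FPKM against 3.23 ± 0.249 (0.49, 4.11e-05), and S1pr1, a sphingosine 1-phosphate receptor, was 16.9 ± 2.50 against 12.9 ± 1.84 (0.36, 0.0107). Adgrl4 and Calcrl were also higher (0.34 and 0.25), and Egfl7 was lower (−0.30, 0.0155), a call absent after the GC and length trends were removed, when 5 were higher and 0 lower. Between the drugs 1 was higher in vutiglabridin (Egfl7) and 2 lower (Ptprb and Calcrl). The counts were 0 and 7 on the TPM scale and 3 and 3 after quantile normalization. They were 2 and 5 with the GC and length trends removed, and 0 and 3 without semaglutide replicate 8. Of all genes, 11.9% were higher and 12.6% lower as deposited, and 5.09% and 19.6% on the TPM scale.

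Kdr acts with the VEGF and angiopoietin ligands and receptors, of which 12 besides Kdr were tested. Of all genes, 6.53% were higher and 8.78% lower with vutiglabridin. In this list 1 was higher, 0 lower (also 0 at an unadjusted p under 0.05) and 11 did not pass. It was the ligand Vegfa, at 46.8 ± 8.72 FPKM against 36.9 ± 4.01 in vehicle (0.32, limma adjusted p = 0.0245), and its call was lost on the TPM scale (0.16, 0.200), after quantile normalization (0.21, 0.135) and without vehicle replicate 7 (0.30, 0.0511). With semaglutide 14.3% of all genes were higher and 12.7% lower. In this list 2 receptors were higher, 0 genes lower (also 0 at an unadjusted p under 0.05) and 10 did not pass. Nrp1, the VEGF co-receptor neuropilin-1, was 6.49 ± 1.27 FPKM against 3.92 ± 0.508 (0.59, 4.08e-05, and 0.42 with GC and length trends removed). Flt4, the receptor VEGFR3, was 7.51 ± 1.31 against 5.69 ± 0.793 (0.34, 0.0358), a call lost on the TPM scale (0.0913) and without vehicle replicate 7 (0.0694). Vegfa in semaglutide was 33.9 ± 3.92 FPKM (−0.12 from vehicle, 0.384). The other VEGF receptor of the list, Flt1, differed from vehicle by 0.18 with vutiglabridin (0.0847) and 0.05 with semaglutide (0.629). Between the drugs Vegfa (0.44, 0.00160) and Angpt2 (0.25, 0.0440) were higher in vutiglabridin, and Nrp1 (−0.49, 0.000448) and Angpt1 (−0.30, 0.00759) were lower. Angpt2 lost its call on the TPM scale (0.0887), with GC and length trends removed (0.0759) and without semaglutide replicate 8 (0.0692), and Angpt1 with these trends removed (0.0531). On the TPM scale 4 of the 12 were lower, beside 19.6% of all genes. As deposited, 11.9% of all genes were higher and 12.6% lower.

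Genes of ordinary capillaries and of basement membrane gave 22 tested genes. With vutiglabridin 0 were higher in the limma test (1 at an unadjusted p under 0.05), 7 lower and 15 did not pass. Of all genes, 6.53% were higher and 8.78% lower. The list median was −0.22, beside 0.01 for all genes. On the TPM scale 11 of the 22 were lower, beside 23.6% of all genes. Nid1, a basement membrane linker, was 5.16 ± 1.35 FPKM against 9.80 ± 1.55 in vehicle (−0.82, limma adjusted p = 5.38e-05). Ly6a differed by −0.94 (0.000698), Col4a1, a type IV collagen chain, by −0.59 (0.00136), Vcam1, a leukocyte adhesion molecule, by −0.46 (0.00277), and Col4a2, Lamb1 and Cd34 were also lower. Without vutiglabridin replicate 7, or without vehicle replicate 7, 5 were lower. Type IV collagen and Nid1 are also made by stellate cells, and 5 of 12 stellate cell markers were lower in the same samples. Which cells made these transcripts was not tested.

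With semaglutide 2 of the 22 were higher, 6 lower and 14 did not pass (median −0.13). Of all genes, 14.3% were higher and 12.7% lower. Plvap, a diaphragm protein of capillary fenestrae that is low in mature sinusoids, was 17.8 ± 2.94 FPKM against 30.3 ± 6.35 (−0.73, limma adjusted p = 0.000244). Nid1 (−0.63, 0.000225), Vcam1 (−0.43), Ly6a (−0.65), Col4a1 (−0.38) and Col4a2 (−0.34) were lower as well, and Aqp1, a water channel, was higher (0.40, 0.000429), as was Lama4 (0.22, 0.0350). Without semaglutide replicate 8, 1 was higher and 5 lower, and without vehicle replicate 7, 3 and 5. Of 12 stellate cell markers, 6 were lower and 1 higher with semaglutide, and their part in these differences was not tested. In vutiglabridin Plvap was 24.2 ± 5.75 FPKM, a difference from vehicle of −0.32 that did not pass (0.106) and passed on the TPM scale (−0.47, 0.00991) and after quantile normalization (−0.39, 0.0449). Lama4 lost its call on the TPM scale (0.0636) and with GC and length trends removed (0.156). Between the drugs Plvap (0.41, 0.0269) and Esm1 (0.69, 0.0116) were higher in vutiglabridin, and Lama4, Hspg2 and Aqp1 were lower. Plvap lost this call on the TPM scale (0.0842), after quantile normalization (0.0543) and without semaglutide replicate 8 (0.0605).

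**Figure D5:**
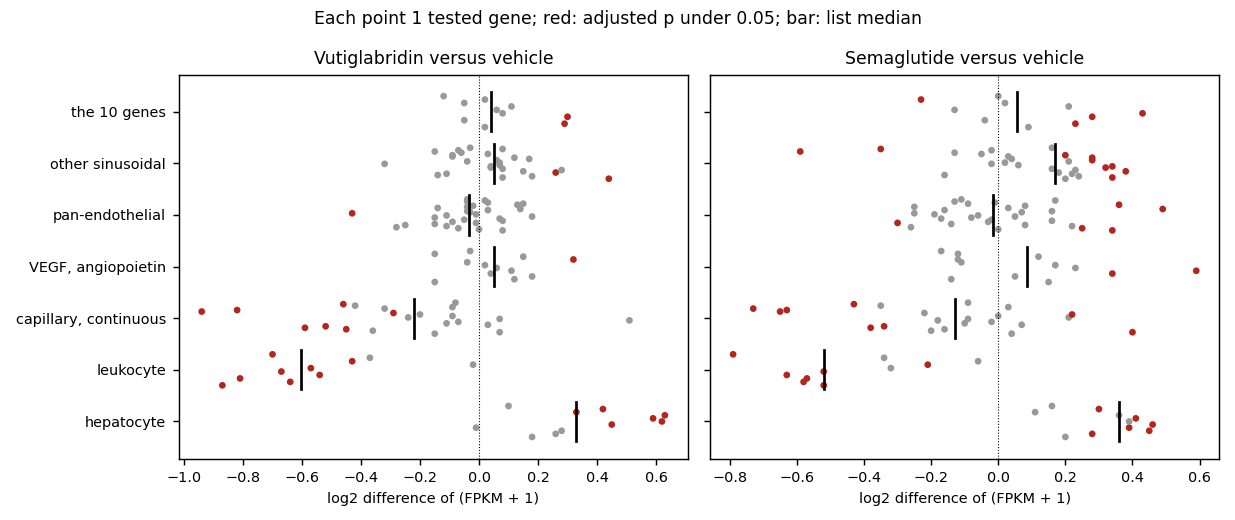
Log2 difference of FPKM + 1 from vehicle for each tested gene (points) of the 10 endothelial genes, 4 other endothelial lists, and leukocyte and hepatocyte markers, with limma calls at adjusted p under 0.05 in red and list medians as bars. The capillary list has a median of −0.22 with vutiglabridin and −0.13 with semaglutide, while the medians of the 10 genes are 0.04 and 0.06. Stellate cell markers, not drawn, had medians of −0.27 and −0.26.

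Smaller marker lists completed the picture of cells near the sinusoid. Over all genes, 6.53% were higher and 8.78% lower with vutiglabridin, and 14.3% and 12.7% with semaglutide. Of 4 lymphatic endothelial genes, 1 was lower with vutiglabridin (Pdpn, −0.55, limma adjusted p = 0.0157). With semaglutide 2 were higher, Flt4, which is also in the other sinusoidal and VEGF lists, and Prox1 (0.69, 0.000911). Prox1 is a transcription factor that hepatocytes also express. Of 3 platelet genes, Pf4 was lower with vutiglabridin (−0.89, 0.00106) and 0 passed with semaglutide (1 lower at an unadjusted p under 0.05, which was Pf4 at −0.45, 0.0529, and passed on the TPM scale at 0.0323, after quantile normalization at 0.0461 and without vutiglabridin replicate 7 at 0.0382). Of 3 B cell genes, 1 was lower with vutiglabridin (Cd79b, −0.63, 0.0423), a call lost after quantile normalization (0.0884), with a replicate block (0.0502) and without vutiglabridin replicate 7 (0.0607) or vehicle replicate 7 (0.0768), and 0 passed with semaglutide in the limma test (2 lower at an unadjusted p under 0.05).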

How the data were processed

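Liver RNA of 24 mouse samples was measured, 8 in each of 3 groups taken from the treatment label. Per the labels' protocols, RNA came from an RNeasy kit, libraries from the TruSeq Stranded mRNA kit, and paired-end reads from a NovaSeq instrument. The authors deposited 1 FPKM value per gene and sample in a table of 14293 protein-coding genes, whose identifiers and symbols all matched GENCODE M21 (GRCm38), the source of gene coordinates here. The submitters' processing notes name HISAT2, StringTie and DESeq2. For their versions and roles, the genome build and the strand setting, the sources used here give nothing.

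Values were taken as log2(FPKM + 1), which understates changes of low genes. The 11562 genes that reached 0.5 FPKM in 8 samples or more entered 1 limma model (limma 3.58.1, R 4.3.3, moderated 2-sided test with a mean trend, group as the only term), with Benjamini-Hochberg adjustment over genes within a comparison and a threshold of 0.05. On simulated data for vutiglabridin and vehicle with 11562 genes, 89.0% of log2 changes of 0.5 and 99.0% of changes of 1 were recovered, with 11 unchanged genes called. Correlations were computed on deviations from group means with 100000 permutations within groups. The alternatives were pseudocounts of 0.1 and 0.5, 2 other filters on low values, TPM, quantile normalization, median centring, 2 groups only, a rank sum test, a replicate block, removal of GC content and exon length trends (splines with 5 degrees of freedom, alone and with the block), and each sample left out.

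Depth was estimated from FPKM below 0.35 in genes with exons of at most 1500 bp, where values are multiples of 1 fragment (within 0.2 of a whole number). Because each step was fitted to those values, fragment numbers are estimates. The members and lists (other sinusoidal, pan-endothelial, VEGF and angiopoietin, capillary and continuous, lymphatic, Kupffer cell, leukocyte, B cell, platelet, stellate cell and hepatocyte genes) were chosen with earlier results of these data known, and list genes were named by lowest p, at most 4 per list and comparison. Any VEGF or angiopoietin gene could be named. Some lists share genes, among them Flt4, Adgrl4, Eng, Cldn5, Tek, Tie1, Flt1 and Rspo3, so their counts are not independent. Other list genes named beyond that, and Fcgr3, were chosen after their values were seen. Cd209b, Pgf, Ccl21a, Gp9, Gp1bb, Gp6 and Tf of the lists were not analysed here.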

Additional observations from a re-analysis of the deposited data

Results flagged for a closer look

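Of the 30 sets of 8 values (10 genes in 3 groups), 2 held a sample that stood apart from the rest of its group by Dixon's criterion (the gap to the nearest sample as a share of the group's range, at the 95% critical value for 8 samples), and chance gives about 1 in 20. Both concern Cdh5, VE-cadherin. Vehicle replicate 7 was at 8.94 FPKM, with the next sample at 6.61 and a gap of 0.572 of the range, and the vehicle mean without it was 5.88 FPKM. Vutiglabridin replicate 6 was at 9.54 FPKM, with the next at 7.05 and a gap of 0.538 of the range, and the group mean without it was 5.97 FPKM. Each was also the sample with the highest pan-endothelial sum (119 and 123 FPKM) and the highest Kupffer cell marker sum of its group. Cdh5 did not pass the test in any comparison with or without these samples.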

How the results depend on the processing

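Of the 30 differences of single genes (10 genes, 3 comparisons), 23 stayed on the same side of the threshold under all 28 alternatives each, and 0 of the 840 values reversed a called direction. Rescaling to TPM moved most. It took the median of the 10 genes for vutiglabridin against vehicle from 0.04 to −0.09, and the genes called from 1770 (755 higher, 1015 lower) to 2962 (233 higher, 2729 lower). The splits moved from 1650 higher and 1474 lower to 1220 and 2169 for semaglutide against vehicle, and from 1372 and 1454 to 589 and 2267 between the drugs. The number of the 10 genes called between the drugs, 2, was 1 under TPM, with only the 2 groups compared and with the rank sum test, and 1 to 2 with each replicate left out (1 without vutiglabridin replicate 6 or 7, or semaglutide replicate 4 or 8), where Stab1 lost its call. The cause was not tested. With a replicate block, the 10 genes gave 2, 4 and 2 calls as without it, and Clec4g differed by 0.29 between vutiglabridin and vehicle (adjusted p = 0.00559). The block changed no call of the 10 genes. Samples with the same replicate number were not treated as pairs in the main fit. Over 24 such pairs the correlation of deviations had a median of −0.01 (−0.25 to 0.29), 11 were over 0.1, and 4 were best matches. Between vehicle and vutiglabridin 6 of 8 pairs were over 0.1 (0.11 to 0.28) and 3 were best matches, while numbers 6 and 7 were at −0.12. Whether replicate numbers pair the samples of these 2 groups was not tested.

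Among lists, whose alternatives were chosen after seeing the data, TPM gave 4 pan-endothelial genes lower with vutiglabridin (1 as deposited), 9 stellate cell genes lower (5), 2 B cell genes lower (1) and 3 hepatocyte genes higher (6). Quantile normalization gave 1 and 3 hepatocyte genes higher with vutiglabridin and semaglutide (6 and 6). With the replicate block the single B cell call was lost, 1 pan-endothelial gene was higher with vutiglabridin (0 as deposited) and 3 between the drugs (1), and 2 VEGF and angiopoietin genes were higher with vutiglabridin (1). Depth, known only as an estimate, limits Lyve1 most, with a counting error of 7.4% at its median against 3.4% for Stab1.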
